A study of Mus musculus with 4 samples.

Results

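The genes described here are 31 genes of glycolysis and of the response to low oxygen, out of 25071 gene symbols counted in single cells of the mouse vaginal epithelium. They were taken by name: 18 carry glucose into the cell, break it down, remove the lactate or regulate these steps, and 13 encode the hypoxia-inducible factor HIF-1α or genes that it is known to induce. All 31 were listed in the matrices of both ovary-intact libraries, and 30 in that of each library from ovariectomised mice. Drop-seq, which tags the RNA of single cells in droplets counting the molecules near the 3′ end of transcripts by their unique molecular identifiers (UMIs), was run on 4 libraries of C57BL/6 mice. Libraries WT1 and WT2 came from wild-type mice with ovaries, and libraries OVX1 and OVX2 from mice whose ovaries had been removed by surgery, so that their main source of oestrogen and progesterone was gone. Each library pooled 5 mice, while the sources used here give no age, oestrous stage or time since surgery. Whether the libraries of a group were separate pools is unclear, so a p-value below may reflect technical spread between libraries alone.

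Glycolysis splits glucose into pyruvate. Glucose enters through transporters such as GLUT1, is trapped by hexokinase, committed by phosphofructokinase and cut by aldolase, and the lower enzymes then yield ATP and pyruvate, which lactate dehydrogenase can turn into lactate for export. When oxygen is scarce, the prolyl hydroxylases that mark HIF-1α for destruction are less active, and the stabilised factor binds short DNA elements with the core ACGTG or GCGTG and induces many glycolytic genes as well as genes of blood vessel growth, acid balance and mitochondrial turnover. The vaginal epithelium is stratified. Under oestrogen its basal cells divide and the layers above them thicken and cornify, far from the blood vessels of the stroma, and without ovarian hormones it thins.

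Because HIF-1α acts through such elements, the bases before the transcription start were read for 30 of the 31 genes from RefSeq promoters on GRCm38.p6. The motifs ACGTG and GCGTG were searched on both strands in the 250 bases before each start, and CACGTG therefore counts once on each strand. One or both motifs occurred in 32 of 40 promoters of the 30 genes (80%), in 38.6% of all 32851 promoters of the same length and in 44.0% of the 21263 promoters of protein-coding genes. ACGTG alone was found in 52.5% of the genes' promoters against 16.6% of all promoters. By role, 21 of 27 promoters of the glycolytic set and 11 of 13 of the hypoxia set held a motif. The sets were not matched for base composition, and a match shows these letters only, not a bound site. Windows of 1 gene can overlap and share a match, as in Aldoa and Eno1, and some windows lie largely in annotated exons. The hypoxia set was taken as HIF-1α and genes that it is known to induce, so its share is not an independent result. The promoters of the glucose transporter gene Slc2a1, of the lactate genes Slc16a3 and Ldha and of the hydroxylase gene Egln3, picked with their matches known, are shown 5′ to 3′ on the strand of the gene, with motif matches in capitals, each up to its first base that lies in an annotated exon or to the end of a motif that reaches into it.
Slc2a1, chr4:119108495-119108713, plus strand: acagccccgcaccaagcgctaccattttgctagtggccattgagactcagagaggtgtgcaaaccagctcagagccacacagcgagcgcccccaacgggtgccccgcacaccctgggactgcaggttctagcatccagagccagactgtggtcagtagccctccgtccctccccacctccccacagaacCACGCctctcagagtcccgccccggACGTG
Slc16a3, chr11:120948817-120949052, plus strand: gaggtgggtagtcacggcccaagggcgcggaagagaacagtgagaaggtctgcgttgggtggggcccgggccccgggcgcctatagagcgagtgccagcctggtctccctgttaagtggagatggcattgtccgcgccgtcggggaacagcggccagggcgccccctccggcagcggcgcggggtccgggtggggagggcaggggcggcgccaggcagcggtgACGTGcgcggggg
Ldha, chr7:46845554-46845803, plus strand, the upstream one of 2 starts: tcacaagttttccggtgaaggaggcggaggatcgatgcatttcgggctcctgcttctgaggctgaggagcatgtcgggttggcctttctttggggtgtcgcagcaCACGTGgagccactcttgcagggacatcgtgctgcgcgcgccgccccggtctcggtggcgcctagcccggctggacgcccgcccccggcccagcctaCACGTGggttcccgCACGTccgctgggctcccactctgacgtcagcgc
Egln3, chr12:54203875-54204124, minus strand: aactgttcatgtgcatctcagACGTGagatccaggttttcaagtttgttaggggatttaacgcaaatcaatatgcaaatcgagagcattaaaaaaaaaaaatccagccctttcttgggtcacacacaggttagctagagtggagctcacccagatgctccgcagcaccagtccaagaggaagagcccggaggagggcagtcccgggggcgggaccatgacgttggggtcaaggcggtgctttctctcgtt
In Slc2a1 the matches began 61 and 36 bases before the start. Slc16a3 held a match 27 bases before the start and a further one 14 bases before it, inside an annotated exon and not shown. Both Slc16a3 and Ldha have further starts upstream of these windows in GENCODE vM21. The upstream start of Ldha had 5 matches, beginning between 145 and 34 bases before it, of which 4 were the paired strands of 2 CACGTG words. Egln3 held 1 match, 229 bases before its start. Pkm is not shown because 208 and 140 of the 250 bases before its 2 starts lie in annotated exons, and 1 of the 2 windows held a match, 75 bases before the start.

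The cells kept, those with 200 or more genes and no more than 20% of UMIs from mitochondrial genes, numbered 2979 and 1987 in WT1 and WT2 and 1573 and 1907 in OVX1 and OVX2. Their summed depth was 5830417 and 1930040 UMIs in WT and 798916 and 1636888 in OVX. Several features of the libraries moved with the groups: the median mitochondrial share of a cell was 4.00% and 3.85% in WT against 8.97% and 9.69% in OVX, Malat1, an RNA that stays in the nucleus, made up 0.336% and 0.465% of UMIs against 2.5% and 1.81%, and 10 proliferation markers together took 0.278% and 0.202% against 0.0228% and 0.0411%. All 10 basal keratinocyte markers were detected in every library. Among markers of other cell types, all 13 macrophage markers were detected in at least 1 library, with summed levels of 133 and 139 UMIs per 1000000 UMIs of the library (CPM) in WT and 918 and 532 in OVX. Fibroblast markers summed to 1.37 and 26.9 CPM in WT and 230.3 and 224 in OVX, while the endothelial markers summed to at most 2.07 in any library, with Cdh5 at 0 in every one. T and NK cell markers summed to 66.7 and 81.9 CPM in WT and 22.5 and 27.5 in OVX, with Cd8a and Gzmb at 0 in every library, and neutrophil markers to 9.43 and 11.4 against 0 and 1.22, with Csf3r at 0 in every library. The part of RNA quality, of dividing cells and of other cell types in the differences below was not tested. Some values below come from cells grouped by markers or from cells with 0 UMIs of the proliferation markers. Between 2 and 15 cell barcodes were shared by a pair of libraries, the most by OVX1 and OVX2, and leaving out these barcodes changed none of the calls among the 31 genes in whole libraries.

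After ovariectomy the entry of glucose, the last step of glycolysis and the exit of lactate were represented by fewer transcripts: Slc2a1 was 18.3-fold lower, Pkm 4.57-fold lower, and Slc16a3 all but absent. Most genes of the steps between them also had lower levels in both OVX libraries, but none of these passed the threshold. UMIs were summed per library over the kept cells, and edgeR's quasi-likelihood test with Benjamini-Hochberg adjustment over all 11495 genes tested gave calls at an adjusted p under 0.05. Of the 18 glycolytic genes 16 passed the filter on low counts, and Slc2a1, Pkm and Slc16a3 fell, whereas none rose. Over all genes tested, 2.52% were called lower and 2.58% higher. All 16 had a fold change below 0 on the log2 scale, with a median of -1.42, against a median of -0.03 over all genes tested. A gene can pass the filter on its WT counts alone, as Slc16a3 did. In 15 of the 16, both OVX libraries lay below both WT libraries, an order that 21.2% of all genes tested showed. These are levels relative to the total RNA of a library, so fewer cells of a type and less RNA per cell cannot be told apart.

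Slc2a1 encodes GLUT1, the glucose transporter of most epithelia (chromosome 4, 119108711 to 119137983 on GRCm38, GENCODE vM21). It was counted at 298 and 294 CPM in WT1 and WT2, and at 20.03 and 15.9 in OVX1 and OVX2. The WT libraries differed by little from each other, and both OVX libraries lay far below them. The log2 fold change was -4.20 ± 0.44 (SE, edgeR adjusted p = 0.00384). The call held under all 13 alternative settings tried.

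The genes of the next steps, down to phosphofructokinase, were not past the threshold. Hk1 and Hk2, which trap glucose as glucose 6-phosphate, were counted at 43.6 and 43.0, and at 49.1 and 64.2 CPM in WT, against 37.6 and 34.2, and 36.3 and 42.8 in OVX. Gpi1, the isomerase of the next step, was at 119 and 99.0 in WT and 91.4 and 65.4 in OVX. For each of these 3 genes both OVX libraries lay below both WT libraries, an order that 21.2% of all genes tested showed. Their log2 fold changes were between -0.41 and -0.64 (lowest adjusted p = 0.418, edgeR). Pfkl, a phosphofructokinase subunit, stood at 44.6 and 58.0 against 37.6 and 28.7 CPM (adjusted p = 0.328), and Pfkp, another subunit, at 41.2 and 50.3 against 18.8 and 19.6 (adjusted p = 0.104).

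From the cut of the sugar downward, several genes differed between the libraries of one group. Aldoa, the aldolase that splits the 6-carbon sugar, was at 284 and 538 CPM in WT and 210.3 and 122 in OVX, with -1.46 ± 0.49 (SE) as log2 fold change (adjusted p = 0.143, edgeR). Tpi1, which interconverts the products of aldolase, was at 256 and 243 against 113 and 117, with libraries of a group close to each other (log2 fold change -1.25 ± 0.38, adjusted p = 0.116). Pgk1, the first ATP-yielding enzyme, ran from 19.4 and 61.1 in WT to 17.5 and 3.05 in OVX, so that WT1 and OVX1 nearly met. Pgam1, a mutase, was at 8.75 and 23.8 in WT and 8.76 and 2.44 in OVX, and OVX1 lay above WT1. Eno1, an enolase, was at 129.7 and 360 in WT and 123 and 37.3 in OVX. None of these 5 genes passed the threshold.

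Pkm, the pyruvate kinase that makes pyruvate (chromosome 9, 59656368 to 59679375), was at 456 and 584 CPM in WT and 146 and 106 in OVX. Both OVX libraries were below both WT libraries. The log2 fold change was -2.19 ± 0.42 (SE, edgeR adjusted p = 0.0277). This call was lost without OVX1 (adjusted p = 0.246) and without OVX2 (adjusted p = 0.413), and over all alternatives the log2 fold change stayed between -2.36 and -2.04.

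At the lactate end the exporter stood out in size. Ldha, the lactate dehydrogenase subunit that favours lactate, was at 481 and 781 CPM in WT and 259 and 174 in OVX, lower by -1.69 ± 0.45 (SE) on the log2 scale but not past the threshold in edgeR (adjusted p = 0.0781). Slc16a1 encodes the lactate carrier MCT1, which works in both directions, and stood at 78.2 and 91.2 against 41.3 and 31.2 CPM (adjusted p = 0.0951). Slc16a3 encodes MCT4, the carrier of cells that export much lactate (chromosome 11, 120948480 to 120960868). It was counted by 151 and 78 UMIs in WT1 and WT2, by 0 in OVX1, which allows a level of up to 3.76 (3 counts), and by 1 in OVX2, or 25.9, 40.4, 0 and 0.611 CPM. The pooled level was 71.9 times higher in WT, with a 95% counting interval from 12.8 to 2851 (exact binomial, counting error only). The edgeR test called it lower (adjusted p = 0.00788), under all 13 alternatives too.

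Among the regulators, Pdk1, the kinase that holds pyruvate back from the mitochondrion, was at 42.0 and 45.1 CPM in WT and 23.8 and 21.4 in OVX, with no overlap and an edgeR adjusted p of 0.173. Pfkfb3, which makes the activator of phosphofructokinase, was too low to test, with 34 and 8 UMIs in WT and 0 and 6 in OVX. Gapdh was not measurable: it had 22, 10, 4 and 6 UMIs in WT1, WT2, OVX1 and OVX2. Of the 50-base words in the last 500 bases of its main coding transcript, 90.5% also occur in other genes. There are 143 such genes, of which 135 are pseudogenes, so reads that map to several places could have been dropped or split in the counting. The same share was 75.2% for Eno1, shared with 5 other genes, 7.32% for Pgk1 and 4.21% for Gpi1, whose values are uncertain to that extent.

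**Figure D1:**
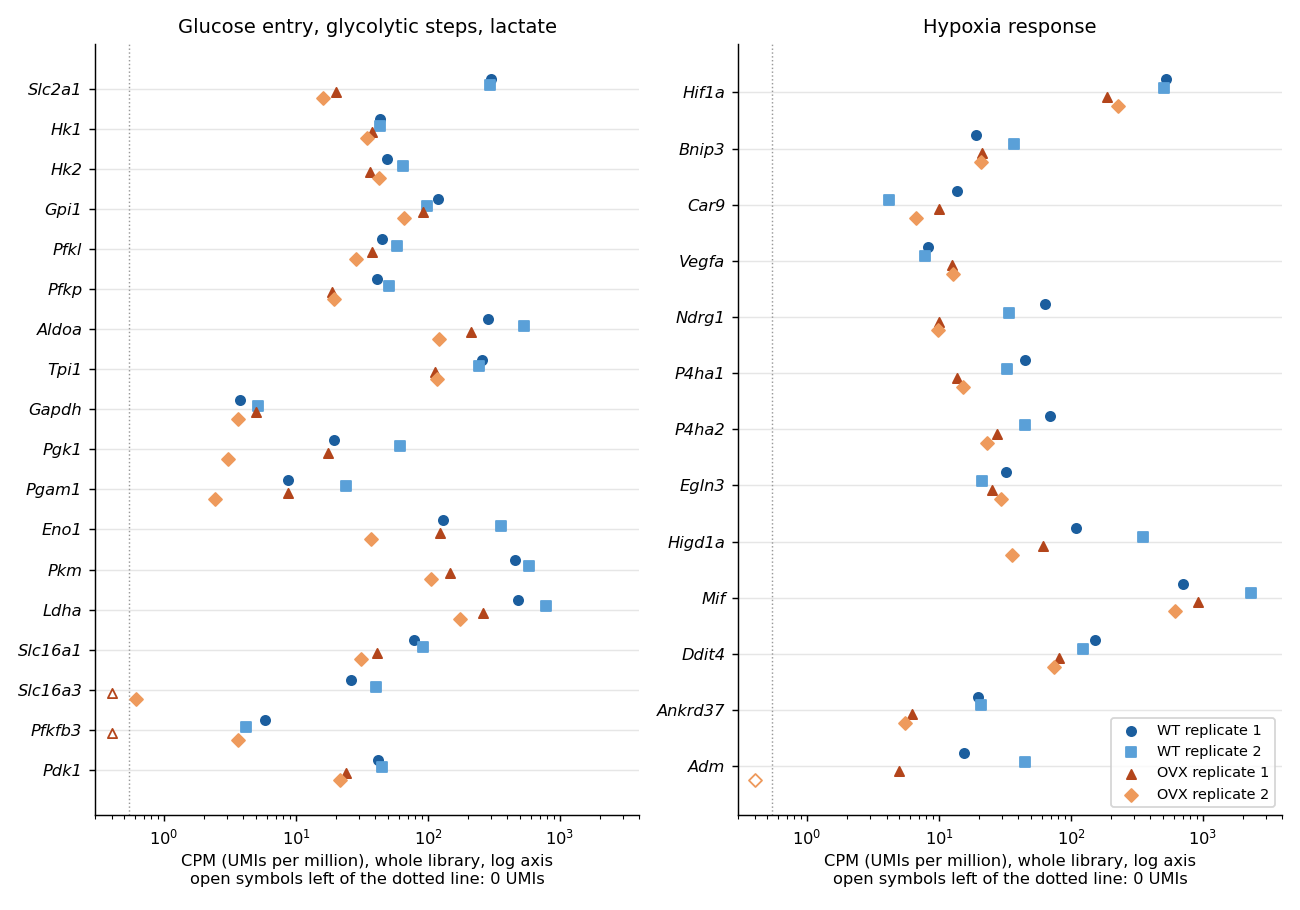
Level of each gene in each library, in CPM on a log axis, for the glycolytic set (left) and the hypoxia set (right). Blue symbols are the WT libraries and orange symbols the OVX libraries, with open symbols for 0 UMIs. Slc2a1 and Slc16a3 show the widest gaps between groups, and Egln3, Car9 and Bnip3 overlap.

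The hypoxia set was less uniform. All 13 genes passed the filter, Ndrg1 fell and none rose. The median log2 fold change was -1.33, with 12 of the 13 below 0, and 8 of the 13 had both OVX libraries below both WT libraries. Over all genes tested, 2.52% were called lower, 2.58% higher, and 21.2% had that order. Vegfa lay above in both OVX libraries, and Bnip3, Car9, Egln3 and Mif overlapped between groups.

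Hif1a itself (chromosome 12, 73901375 to 73947530), the oxygen-regulated subunit, was at 523 and 509 CPM in WT and 187 and 227 in OVX. The WT libraries were close to each other and the groups did not overlap, yet the log2 fold change of -1.45 ± 0.40 (SE) missed the threshold in edgeR (adjusted p = 0.0882). Its protein is mainly controlled by degradation, which RNA counts do not show. Egln3, an oxygen-sensing hydroxylase that HIF-1α induces, was at 32.4 and 21.2 in WT and 25.0 and 29.3 in OVX, with both OVX values between the WT values.

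Of the targets outside metabolism, Ndrg1, a differentiation and stress gene (chromosome 15, 66929318 to 66969640), was at 63.1 and 33.7 CPM in WT and 10.0 and 9.78 in OVX. The fold change was -2.43 ± 0.50 (SE) on the log2 scale, a 5.40-fold lower level (edgeR adjusted p = 0.0346). The call was lost without OVX1, without OVX2 and when all libraries were thinned to the depth of the smallest, with an adjusted p of at most 0.190 over all alternatives. P4ha1 and P4ha2 encode the catalytic subunits of collagen prolyl hydroxylase. P4ha1 was at 44.6 and 32.6 against 13.8 and 15.3 CPM (adjusted p = 0.0906), and P4ha2 at 69.8 and 44.6 against 27.5 and 23.2 (adjusted p = 0.130, edgeR). Ankrd37, a small ankyrin repeat protein, was at 19.7 and 20.7 in WT and 6.26 and 5.50 in OVX (adjusted p = 0.0689).

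The secreted products differed from each other. Vegfa, the vessel growth factor, was at 8.23 and 7.77 CPM in WT and 12.5 and 12.8 in OVX, the one gene of the 31 with both OVX libraries above both WT libraries (log2 fold change 0.52 ± 0.48, SE, edgeR adjusted p = 0.599). Adm, which encodes the vasodilator peptide adrenomedullin, was counted by 90 and 87 UMIs in WT and by 4 and 0 in OVX, or 15.4, 45.1, 5.01 and 0 CPM. Its log2 fold change of -4.12 ± 1.09 (SE) missed the threshold (adjusted p = 0.0772). Mif, a secreted cytokine, ranged from 702.9 to 2292 within WT, and the OVX values of 914 and 618 lay around WT1. Its share of 50-base words found elsewhere was 56.1%, all in 5 pseudogenes.

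Genes of the mitochondrion and of acid balance completed the set. Higd1a, a protein of the inner mitochondrial membrane, was at 109 and 351 CPM in WT and 61.3 and 35.4 in OVX, with a wide gap inside WT (log2 fold change -2.41 ± 0.62, SE, edgeR adjusted p = 0.0707). Bnip3, which marks mitochondria for removal, was at 19.0 and 36.8 against 21.3 and 20.8. Car9, a carbonic anhydrase of the cell surface, was at 13.7 and 4.15 against 10.0 and 6.72. Ddit4, an inhibitor of mTORC1 signalling, was at 152 and 122 against 81.4 and 74.5 CPM, with no overlap (adjusted p = 0.216).

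Summed over the 18 glycolytic genes, the level was 2385 and 3385 CPM in WT and 1189 and 828 in OVX. The 13 hypoxia genes summed to 1773 and 3521 in WT and 1374 and 1079 in OVX, and without Mif to 1070 and 1229 against 461 and 461. Every WT sum lay above every OVX sum.

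Part of the spread among the genes ran between libraries of one group. Of the 28 genes with at least 4 UMIs in every library, 8 were more than 1.5 times higher in WT2 than in WT1, namely Aldoa, Pgk1, Pgam1, Eno1, Ldha, Bnip3, Higd1a and Mif. Of these, Aldoa, Pgk1, Pgam1, Eno1 and Higd1a were also more than 1.5 times higher in OVX1 than in OVX2. In the opposite direction Car9, Ndrg1, P4ha2 and Egln3 were more than 1.5 times higher in WT1 than in WT2, and no gene was that much higher in OVX2 than in OVX1. Of all 11191 genes with that many UMIs, 29.4% were more than 1.5 times higher in WT2 than in WT1, and 15.5% also in OVX1 against OVX2. Between the OVX libraries Pgk1 showed the widest gap of the 28, 5.74 times, on 14 and 5 UMIs, and between the WT libraries it differed by 3.15 times. Slc2a1, Hk1, Pfkp, Tpi1, Pdk1, Hif1a, Vegfa, Ddit4 and Ankrd37 differed by less than 1.3 times within each group.

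**Figure D2:**
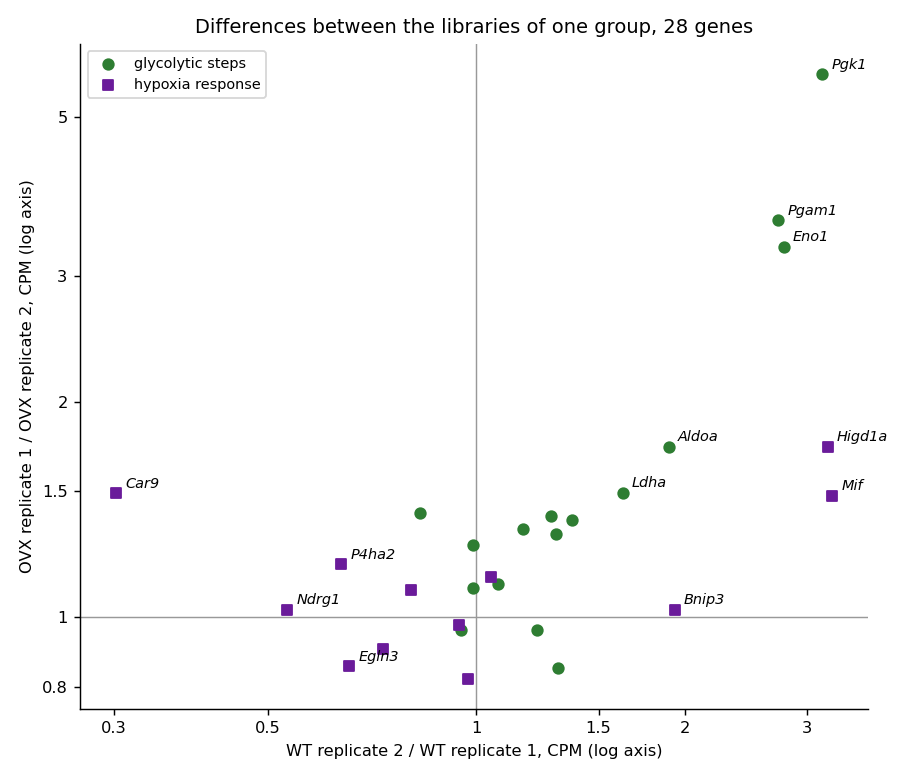
Ratio of WT2 to WT1 (horizontal) and of OVX1 to OVX2 (vertical), in CPM on log axes, for the 28 genes with at least 4 UMIs in every library. Each point is 1 gene, and those with a ratio beyond 1.5 in WT or in OVX are named. Pgk1, Pgam1, Eno1, Aldoa and Higd1a lie to the upper right.

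To compare cells by layer, each cell was placed in a layer by its share of UMIs from marker genes, none of which is among the 31. Cells with at least 0.5% of UMIs from Krt5, Krt14 and other basal markers, and few from the other layers, formed the basal gate. It held 1777 and 796 cells in WT and 826 and 1218 in OVX. The basal gate was the one with at least 50 cells in all 4 libraries. The suprabasal gate (Krt1, Krt10 and others) and the upper gate (Krt4, Krt13 and others) held at most 13 cells in an OVX library. The luminal gate (Krt8, Krt18 and others) held 6 cells in each WT library. In WT that gate had 0 UMIs of Krt8, Krt18 and Krt19 in both libraries, and 18 and 19 UMIs of Krt7. The basal gate still differed between groups in dividing cells, with 0.386% and 0.309% of its UMIs from proliferation markers in WT against 0.0289% and 0.0468% in OVX.

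In basal-gate cells Slc2a1, Pkm and Slc16a3 were again lower after ovariectomy. Of 9420 genes tested in this gate, 2.09% were called lower and 1.32% higher, and of the 26 genes of the set that passed the filter these 3 were lower and none higher. All 26 had a log2 fold change below 0, with a median of -1.20 against -0.03 over all genes tested. Slc2a1 was at 325 and 242 CPM of the gate in WT and 25.7 and 16.7 in OVX (log2 fold change -3.83 ± 0.51, SE, edgeR adjusted p = 0.00654), a call lost without OVX2 (adjusted p = 0.0726). Slc16a3 had 82 and 30 UMIs in WT and 0 and 1 in OVX in these cells (adjusted p = 0.0140), and its call held under all 11 alternatives. Pkm was at 456 and 612 against 149 and 111 CPM of the gate (log2 fold change -2.08 ± 0.45, adjusted p = 0.0372), a call lost without OVX1 (adjusted p = 0.469) and without OVX2 (adjusted p = 0.620).

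Ndrg1, called in whole libraries, was not called in the basal gate: it was at 47.5 and 24.0 CPM in WT and 14.0 and 13.0 in OVX (log2 fold change -1.48 ± 0.56, SE, edgeR adjusted p = 0.217). Ldha was at 458 and 783 against 254 and 172 (adjusted p = 0.118), and Hif1a at 534 and 497 against 203 and 257 (adjusted p = 0.216). Hk1, Hk2, Bnip3 and Egln3 had log2 fold changes between -0.23 and -0.14 there. Restricted to basal-gate cells with 0 UMIs of the proliferation markers, the called genes of the set were Slc2a1 and Slc16a3, and Pkm was no longer called at a fold change of the same size (-2.08 ± 0.45 on the log2 scale, SE, edgeR adjusted p = 0.0686). That restriction, added after the data had been seen, leaves 434 and 304 cells in WT and 753 and 1012 in OVX. It also depends on depth, since a dividing cell with few UMIs can show 0 of these markers. Basal-gate cells had a median of 1592 and 775.5 UMIs in WT and 458 and 756 in OVX.

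**Figure D3:**
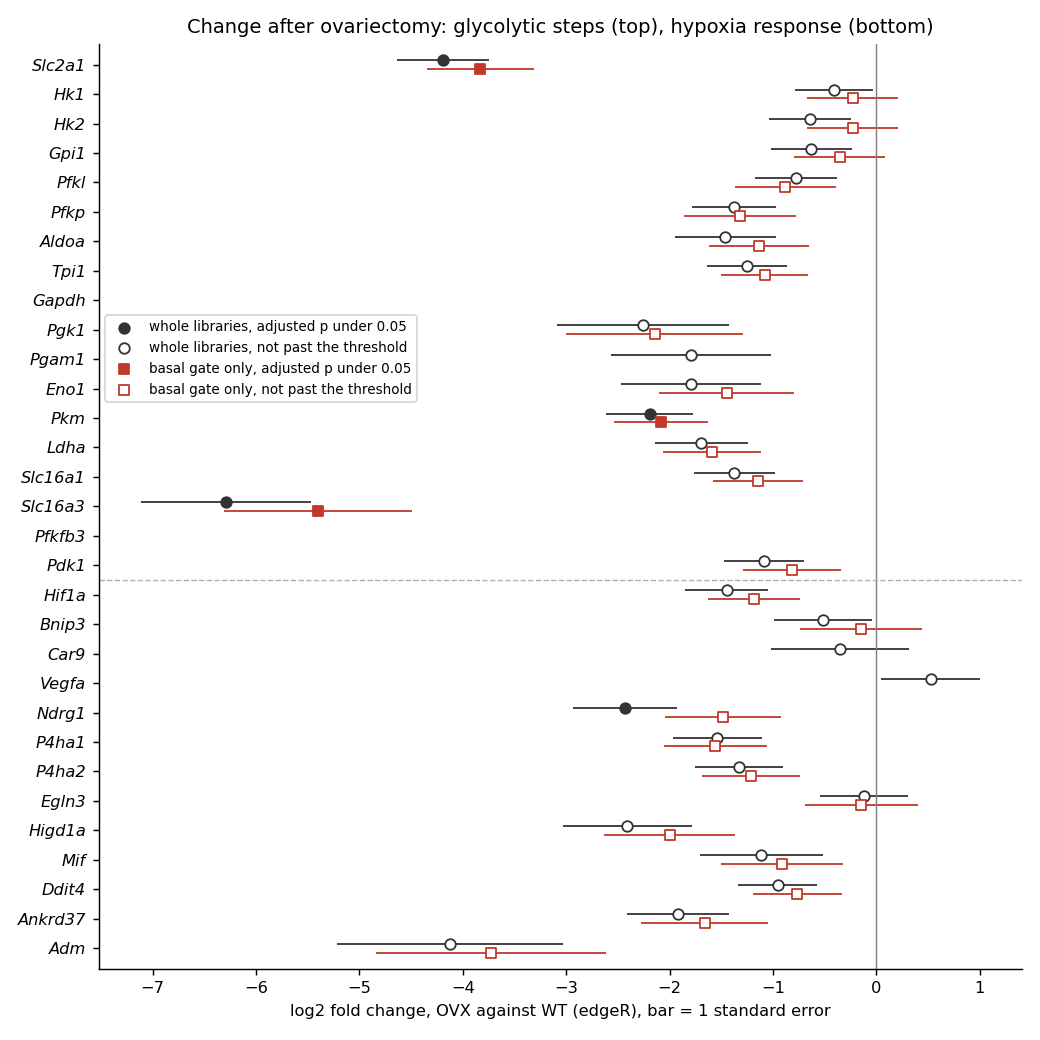
The log2 fold change of OVX against WT for each gene, from whole libraries (circles) and from basal-gate cells (squares), with bars of 1 standard error from edgeR. Filled symbols passed an adjusted p of 0.05, and genes without a symbol were too low to test. Slc16a3, Slc2a1 and Pkm are filled in both, and Vegfa lies to the right of 0.

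Within the WT epithelium several genes of the set were higher above the basal layer. The sums of 10 library and gate combinations were fitted together with the library as a block, which leaves 3 residual degrees of freedom, so that the p-values rest on 2 libraries and on a spread shared across genes. In the suprabasal against the basal gate, 8.25% of 8547 genes tested were called higher and 8.54% lower. Of the 28 genes of the set tested, 10 were higher, the glycolytic Hk2, Aldoa, Tpi1, Eno1 and Pdk1 and the hypoxia genes Bnip3, Ndrg1, Higd1a, Mif and Adm, and P4ha1 was lower. The median log2 difference of the 28 was 0.30, against -0.01 over all genes tested. Most of these calls depend on the setting: 2 of the 11 remained with DESeq2, 2 without WT1 and 3 without WT2, and 1, Higd1a, with cells free of proliferation markers. The share of UMIs from those markers was 0.0561% and 0.0829% in the suprabasal gate against 0.386% and 0.309% in the basal gate.

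Higd1a was the gene whose suprabasal call held under all 9 alternatives. It was at 81.4 and 294 CPM in the basal gate and 229.6 and 493 in the suprabasal gate of WT1 and WT2 (log2 difference 1.28 ± 0.14, SE, edgeR adjusted p = 4.12e-17), and at 87.4 and 297 in the upper gate. Both libraries showed the higher suprabasal level, and their upper gates lay close to their basal gates. Aldoa was at 243 and 437 in the basal gate, 393 and 689 in the suprabasal and 304 and 574 in the upper gate. Its suprabasal difference of 0.86 ± 0.12 on the log2 scale (adjusted p = 1.32e-11) held under 8 of 9 alternatives, and with cells free of proliferation markers it was 0.47 (adjusted p = 0.0515). Adm was at 12.1 and 30.6 in the basal and 25.5 and 62.4 CPM in the suprabasal gate (adjusted p = 0.0103), on 15 and 28 UMIs in the latter.

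The upper gate showed a split among the genes. Against the basal gate, 6.97% of genes tested were called higher and 9.45% lower. Hk2, Aldoa, Ndrg1, Egln3, Mif and Ddit4 were higher, and Slc2a1, Pkm, Slc16a1, Hif1a and P4ha1 were lower, 6 and 5 of the 28 tested. Of these 11 calls 4 remained with DESeq2, 2 without WT1, 5 without WT2 and 5 with cells free of proliferation markers. Slc2a1 was at 325 and 242 CPM in the basal gate, 293 and 330 in the suprabasal gate and 109 and 134 in the upper gate (log2 difference of upper against basal -1.35 ± 0.18, SE, edgeR adjusted p = 1.14e-11). That call was lost without WT1 (adjusted p = 0.319). Even in the upper gate of WT both values were above those of basal-gate cells of OVX. Hif1a was at 534 and 497 in the basal, 560 and 493 in the suprabasal and 319 and 210.5 in the upper gate, a log2 difference of -0.79 ± 0.14 that was called under all 8 alternatives (adjusted p = 3.57e-07).

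Egln3 and Ddit4 ran the other way. Egln3 (chromosome 12, 54178981 to 54203860) was at 19.2 and 15.99 CPM in the basal gate, 27.2 and 6.69 in the suprabasal and 104 and 115 in the upper gate of WT. The upper values rest on 68 and 12 UMIs, and the log2 difference from the basal gate was 2.56 ± 0.31 (SE, edgeR adjusted p = 2.81e-15), called under all 8 alternatives. Ddit4 was at 134 and 111 in the basal and 269.9 and 220.1 in the upper gate, a log2 difference of 1.06 ± 0.17 (adjusted p = 2.25e-08) that was lost without WT1 and with cells free of proliferation markers. Hk2 rose from 42.2 and 46.6 in the basal to 70.5 and 153 CPM in the upper gate (adjusted p = 0.00132), lost with DESeq2 and without either WT library. Pkm and Slc16a1 were at 374 and 373, and 49.1 and 38.3, in the upper gate, against 456 and 612, and 87.0 and 97.2, in the basal gate.

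In the ovariectomised epithelium the luminal gate, with 87 and 114 cells, was set against the basal gate. There 3.62% of genes tested were called higher and 3.29% lower, and of the set Egln3 was higher and Hif1a and Mif were lower. Egln3 was at 116 and 83.6 CPM in luminal-gate cells, on 7 and 9 UMIs, against 11.7 and 19.5 in basal-gate cells (log2 difference 2.40 ± 0.57, SE, edgeR adjusted p = 0.000759), a call lost without OVX1. Hif1a was at 33.2 and 139 against 203 and 257 (log2 difference -1.32 ± 0.32, adjusted p = 0.0013), lost with DESeq2 and without OVX1. Mif was at 648 and 288 against 947 and 644 (log2 difference -0.94 ± 0.18, adjusted p = 8.88e-06), called under all 8 alternatives. Slc2a1 had 0 and 1 UMI in this gate, and Slc16a3, Adm and Gapdh had 0 in both libraries, at a depth of 60142 and 107637 UMIs, where 0 counts allow a level of up to 49.9 and 27.9 CPM (3 counts).

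**Figure D4:**
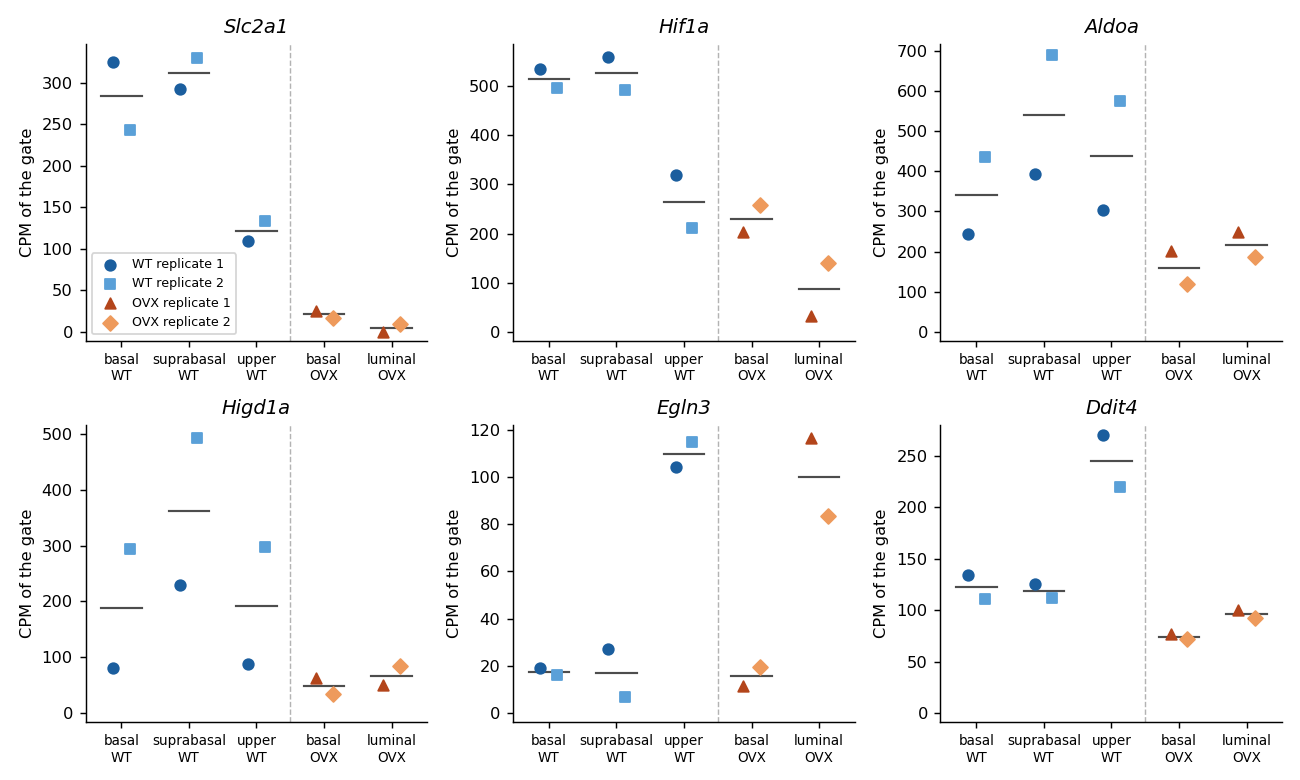
Level of 6 genes by gate, in CPM of the gate, with 1 point per library and a bar at the mean of 2. Gates of WT stand left of the dashed line and gates of OVX right of it. Slc2a1 and Hif1a are lower in the upper gate of WT than in its other gates, Egln3 is high in the upper gate of WT and in the luminal gate of OVX, and Higd1a and Aldoa are highest in the suprabasal gate of each WT library.

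Genes around the pathway moved in both directions. Of 13 other glycolytic isoforms and transporters tested in whole libraries, 1 was higher and none lower, against 2.58% and 2.52% of all genes tested. It was Ldhb, the lactate dehydrogenase subunit that favours pyruvate, at 4.80 and 8.29 CPM in WT and 53.8 and 33.6 in OVX (log2 fold change 2.63 ± 0.50, SE, edgeR adjusted p = 0.0268), the reverse of the direction of Ldha. Ldhb was also higher in luminal-gate than in basal-gate cells of OVX, at 183 and 112 against 35.0 and 27.9, and in the basal gate its change after ovariectomy missed the threshold (adjusted p = 0.118). Of 8 genes of the pentose phosphate pathway, which branches off glucose 6-phosphate, G6pdx, its first enzyme, was lower, at 106 and 115 in WT and 28.8 and 26.9 in OVX (log2 fold change -2.12 ± 0.39, adjusted p = 0.0247), and in the basal gate too (-2.53 ± 0.47, adjusted p = 0.0181). None of the 12 genes of pyruvate entry into mitochondria that were tested passed, with a median log2 fold change of -0.41.

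Glycogen, a sugar store of the stratified vaginal epithelium, gave 2 called genes of 14 tested, both higher after ovariectomy. Of all genes tested, 2.58% were called higher. Ppp1r3c, which targets a phosphatase to glycogen, had 0 UMIs in both WT libraries and 6 and 16 in OVX1 and OVX2, at least 23.4-fold higher when set against 3 counts over both WT libraries (edgeR adjusted p = 0.0166). Stbd1, which tethers glycogen to membranes, was at 2.92 and 1.55 CPM in WT and 16.3 and 17.7 in OVX (log2 fold change 2.67 ± 0.56, SE, adjusted p = 0.0373). The median of the 14 was 0.58. In the basal gate Stbd1 was not past the threshold (edgeR adjusted p = 0.106). Ppp1r3c was too low to test there, with 0 UMIs in both WT libraries and 0 and 7 in OVX1 and OVX2.

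Of 13 tested genes of the oxygen-sensing machinery, Epas1 was called higher and the others were not called, against 2.58% of all genes called higher. The list holds other HIF subunits, hydroxylases, degradation factors, coactivators and a chaperone. Epas1 encodes HIF-2α, the sister factor of HIF-1α, and was counted by 2 and 0 UMIs in WT1 and WT2 and by 30 and 61 in OVX1 and OVX2, or 0.343, 0, 37.6 and 37.3 CPM. The pooled level was 145 times higher in OVX, with a 95% counting interval from 39.0 to 1215 (exact binomial, counting error only), and the edgeR adjusted p was 0.00384. In the basal gate it was at 0.590 and 0 against 30.3 and 39.0 (adjusted p = 0.00654). Hif1a and Epas1 thus had opposite signs of fold change, of which that of Epas1 passed the test.

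Other known hypoxia targets were also mixed, with 1 higher and 1 lower of 22 tested, against 2.58% and 2.52% of all genes tested. The 22 had a median log2 fold change of -0.29. Fam162a, a mitochondrial protein induced by HIF-1α, fell from 1652 and 3445 CPM in WT to 183 and 154 in OVX (log2 fold change -4.06 ± 0.54, SE, edgeR adjusted p = 0.00877). Inside WT it was higher in the suprabasal gate, at 3596 and 5789, than in the basal gate, at 1231 and 2239, as Higd1a was. Cited2, a brake on HIF-1α, was at 13.9 and 11.9 in WT and 80.1 and 54.4 in OVX (log2 fold change 2.21 ± 0.41, adjusted p = 0.0257). In the basal gate Fam162a was called lower as well (adjusted p = 0.00996), and Cited2 was not past the threshold (adjusted p = 0.0717). Of 8 respiratory chain genes of the mitochondrial genome none passed, with a median of 0.56, in libraries where the mitochondrial share of cells was higher after ovariectomy.

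**Figure D5:**
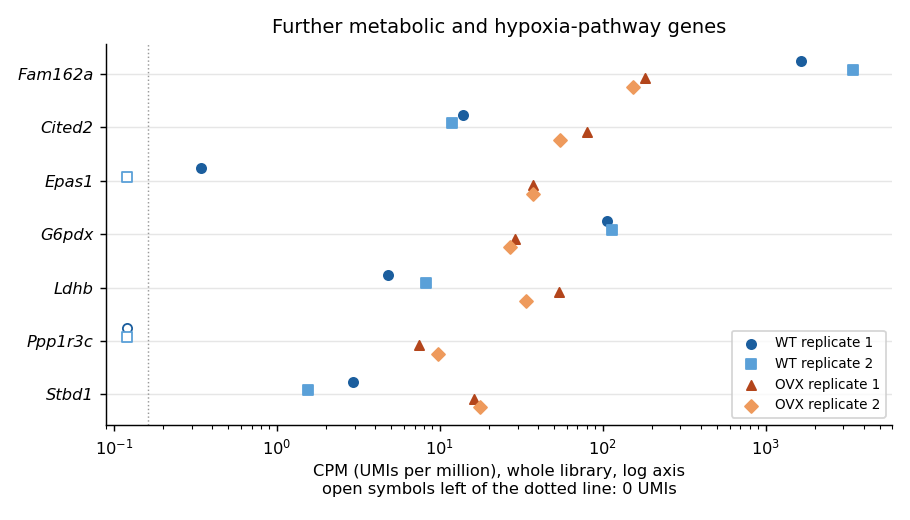
Level of the 7 called genes of the surrounding pathways in each library, in CPM on a log axis, with open symbols for 0 UMIs. Fam162a and G6pdx are lower in both OVX libraries, and Cited2, Epas1, Ldhb, Ppp1r3c and Stbd1 are higher in both.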

How the data were processed

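For each of the 4 Drop-seq libraries the authors deposited 1 matrix of UMI counts, whole numbers with genes in rows and cell barcodes in columns, not normalized. The submitters' processing notes name mm10 and Seurat 2; the aligner, annotation and barcode rule were not given in the sources used here. Counts were summed per library over the kept cells, and per library and marker gate. CPM is a gene's UMIs per 1000000 UMIs of the sum. Sums were tested with edgeR 4.0.16 (TMM, filterByExpr, quasi-likelihood F-test, R 4.3.3), with Benjamini-Hochberg adjustment over all genes tested at 0.05; DESeq2 1.42.0 was an alternative. Every adjusted p is from edgeR's quasi-likelihood test unless DESeq2 is named.

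A cell entered the first gate whose markers held enough of its UMIs, with 3 or more UMIs: non-epithelial lists 1%, upper 0.5%, suprabasal 1%, luminal 0.4%. The basal gate needed 0.5% from basal markers, with under 0.25% upper, 0.5% suprabasal and 0.2% luminal. These thresholds were set after marker distributions had been seen. The suprabasal gate still held basal RNA: in WT1 basal markers made up 5.31% of UMIs in the suprabasal gate and 4.24% in the basal gate. In OVX1 and OVX2 they made up 0.592% and 0.514% in the luminal gate and 1.07% and 1.06% in the basal gate. Of these markers, Krt5 was at 2012 and 2072 CPM in the luminal gate against 2499 and 3317 in the basal gate. Krt14 was at 715 and 474 against 3045 and 2756. Doublets were not called.

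The 31 genes and all lists were chosen with earlier results of these data known. Named beside them are the up to 4 called genes of each further list with the largest fold change in whole libraries. Gene positions and shared 50-base words are from GENCODE vM21 on GRCm38, which may differ from the annotation used for counting. The alternatives were other size factors, DESeq2, no count filter, each library left out, a replicate block, other cell filters, thinning and stricter gates.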

Additional observations from a re-analysis of the deposited data

How the results depend on the processing

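Over all genes, 587 were called in whole libraries and 321 in the basal gate, or 5.11% and 3.41% of genes tested. The suprabasal and upper gates of WT gave 1435 and 1404 (16.8% and 16.4%), and the luminal gate of OVX gave 590 (6.9%). In this order, 4, 3, 11, 11 and 3 of the 31 genes were called. Leaving out 1 library in turn gave 308 to 1884 calls in whole libraries (2 to 16 of the 31), 116 to 1368 in the basal gate (1 to 10), 347 to 1561 in the suprabasal gate (2 to 11), 298 to 1530 in the upper gate (2 to 12) and 224 to 491 in the luminal gate (1 to 3). A group left with 1 library is assumed to vary like the other. The counts were highest without WT2 or WT1 and lowest without OVX2 in the comparisons of OVX with WT. With no count filter, 1356 of 24775 genes (5.47%, 13 of the 31) were called in whole libraries. In the basal gate 692 of 22304 (3.1%, 7 of the 31) were called, and in the suprabasal gate 5.09% (4 of the 31). With DESeq2, 6.86% of genes tested were called in whole libraries. The 7 called among the 31 were Slc2a1, Pkm, Ldha, Slc16a3, Hif1a, Ndrg1 and Higd1a. The layer comparisons gave 420 (2), 524 (4) and 312, or 4.91%, 6.13% and 3.65% of genes tested. Thinning all libraries to 798916 UMIs gave 363. The stricter gate left 5 of the 31 in the suprabasal gate, where 13.4% of genes tested were called. It could not be run for the upper and luminal gates, which then held under 50 cells in a library. With cells free of proliferation markers, chosen after seeing the data, 93 genes were called in the basal gate (1.31% of those tested). The suprabasal gate gave 403 (1), or 6.56%, and the upper gate 505 (5), or 8.22%. The cause of these changes was not tested, including the part of the lower counts when cells or libraries are left out.

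The replicate numbers do not pair the libraries: the deviations of WT1 and OVX1 from their group means had a correlation of -0.569 over 11417 genes. With the number as a replicate block, 517 genes (4 of the 31) were called in whole libraries, 4.5% of those tested. In the basal gate 225 (2) were called, or 2.39%. Pkm was no longer called in either (edgeR adjusted p = 0.0867 and 0.239), and Adm was called in whole libraries. With the crossed replicate block (WT1 with OVX2), chosen after seeing the data, there were 3489 (21) and 2151 (17). These were 30.4% of 11495 and 22.8% of 9420 genes tested, with 29 and 26 of the 31 among them.

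The direction of the fold change between OVX and WT turned for genes not called in that comparison with all 4 libraries. Leaving out 1 library, the log2 fold change in whole libraries ran from -0.96 to 0.85 for Car9 and from -0.43 to 0.28 for Egln3, and in the basal gate from -0.78 to 0.51 for Bnip3, from -0.75 to 0.17 for Egln3 and from -1.58 to 0.14 for Mif. Egln3 was at 0.048 when thinned, and Bnip3 in the basal gate at 0.034 with the crossed replicate block and 0.0904 with the stricter gate. With all 4 libraries, Gapdh and Pfkfb3 did not pass the filter on low counts.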

Other observations

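Some genes of the pentose phosphate pathway differed between layers. The genes named here were chosen after their values had been seen. In WT, G6pdx, Pgd and Taldo1 were higher in the suprabasal than in the basal gate, 3 of 8 tested and none lower. Of all genes tested, 8.25% were called higher there and 8.54% lower. The log2 differences were 0.61 ± 0.19, 0.88 ± 0.28 and 0.56 ± 0.14 (SE, edgeR adjusted p = 0.0116, 0.0129 and 0.000825). In the luminal gate of OVX, G6pdx stood at 83.1 and 83.6 CPM, on 5 and 9 UMIs, against 16.3 and 17.6 in the basal gate. The log2 difference was 2.18 ± 0.56 (edgeR adjusted p = 0.00272), so the basal gate of OVX held less G6pdx than the luminal gate beside it. Taldo1 was also higher there (1.63 ± 0.28, adjusted p = 2.62e-07), and Tkt was lower (-0.97 ± 0.26, adjusted p = 0.0053). Pgm1, listed as a phosphoglucomutase, had the largest log2 difference of the 7 glycogen genes tested in this gate, 3.40 ± 0.55 (adjusted p = 4.42e-08).

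Bhlhe40, a transcriptional repressor that HIF-1α induces, was not past the threshold between OVX and WT (log2 fold change -0.05 ± 0.40, edgeR adjusted p = 0.959), and was higher in the upper than in the basal gate of WT (1.65 ± 0.31, adjusted p = 2.43e-06). Among the 31 genes, Hk2, Aldoa, Egln3, Mif and Ddit4 had that pair of results too.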
